A study of Mus musculus with 62 samples.

Results

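The 8 nucleus accumbens (NAc) libraries with the highest Slc17a7 and the 8 with the lowest, of 26 NAc libraries from 26 mice, were compared across all genes. The libraries were selected on the measured level of Slc17a7 alone, ranked by its CPM (reads of a gene per unit of library size) after TMM scaling over the 26, and the 10 libraries between the ends were kept apart. The series holds 62 libraries, with prefrontal cortex (PFC, n = 17) and suprachiasmatic nucleus (SCN, n = 19) from the same mice. The mice were male and female C57BL/6J mice bred in house, and punches were taken from frozen brains of mice killed at ZT6, about 4 weeks after a circadian rhythm disruption (CRD) or control paradigm. CRD consisted of repeated reversals of the light cycle and was given in adolescence or, as the protocol text among the labels adds, in adulthood; controls were handled but not shifted. Per library, only region and mouse are labelled, not CRD group or sex, so both ends may mix them unequally, which was not tested. Each library came from 1 mouse.

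Slc17a7 encodes VGLUT1, the transporter that fills synaptic vesicles with glutamate in the pyramidal neurons of the cortex and other pallial regions. The projection neurons of the NAc are GABAergic and carry dopamine D1 or D2 receptors, and their excitatory input comes from axons whose cell bodies lie outside the nucleus. Cortex, claustrum, endopiriform nucleus, olfactory structures and septum all border the striatum, so the comparison asks which tissue or neuron class accompanies Slc17a7 in a punch.

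Slc17a7 (ENSMUSG00000070570, chromosome 7 of GRCm38, 45163949 to 45176142) ranged from 4.44 to 330.5 CPM. In the high end it lay between 129 and 330.5 CPM with a median of 187 CPM, on 4939 to 23037 reads per library. In the low end it lay between 4.44 and 19.4 CPM with a median of 13.4 CPM, on 108 to 1072 reads. The libraries just outside the ends had 104 and 21.5 CPM, so the ranking was continuous at both edges. These values chose the libraries and were not tested between the ends.

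The ends also differed in RNA composition. The share of counts on the mitochondrial ribosomal RNAs mt-Rnr1 and mt-Rnr2 was 47.3% ± 4.76 (SD, n = 8) in the high end and 57.9% ± 9.62 (SD, n = 8) in the low end (two-sided exact permutation test over 12870 splits, p = 0.0171, adjusted p = 0.0285 over 5 library measures). Total counts did not separate the ends (exact permutation p = 0.826) and ranged from 28879724 to 60009482 over the 26. The numbering of the mice has a gap between J1021 and J1140, which leaves a lower and an upper range. The high end held 3 libraries of the lower and 5 of the upper range, the low end 5 and 3. The library of J1199 stood apart in the high end and is named beside values it leads.

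Pallial glutamatergic genes were far higher in the high end and genes of striatal projection neurons were modestly lower. Of 11568 genes tested, 1912 (16.5%) were higher and 1832 (15.8%) lower in the high end (edgeR's quasi-likelihood test). A gene is named as called, higher or lower where its adjusted p (Benjamini-Hochberg) was under 0.05 and it changed at least 1.2-fold. The differences were lopsided in size, as 325 genes rose at least 2-fold and 71 at least 4-fold, while 82 fell at least 2-fold and 3 at least 4-fold. With the mt-rRNA share as a covariate the calls were 1101 and 1041, of which 927 higher and 725 lower calls were shared with those above. The p-values describe the relation of each gene to the Slc17a7 rank, not to any labelled treatment.

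Tbr1, a transcription factor of pallial glutamatergic neurons (chromosome 2, 61802930 to 61814114), lay between 19.4 and 41.3 CPM in the high end with a median of 24.3 CPM. In the low end it lay between 0.596 and 3.37 CPM with a median of 1.93 CPM. No high library overlapped a low one, and the fold change was 12.7 (log2 fold change 3.67, SE 0.27, adjusted p = 2.0e-08). Neurod2, a transcription factor of the same neurons (chromosome 11, 98325415 to 98329648), had 4.09, 5.87 and 12.1 CPM as lowest, median and highest value in the high end and 0, 0.260 and 1.11 CPM in the low end (log2 fold change 3.93, SE 0.41, adjusted p = 8.6e-07). Neurod6, its close relative (chromosome 6, 55677822 to 55681263), had 7.32, 9.15 and 22.8 CPM against 0.864, 1.21 and 1.98 CPM (log2 fold change 3.08, SE 0.23, adjusted p = 2.0e-08). In all 3 genes the highest value belonged to J1199, and the ends stayed apart without it. Drd1, the D1 dopamine receptor (chromosome 13, 54051183 to 54055705), ran the other way, with 58.9, 87.4 and 102 CPM in the high end and 127, 150 and 202 CPM in the low end. It fell by 0.91 on the log2 scale (SE 0.13, adjusted p = 2.4e-05), a far smaller step than the pallial genes made.

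**Figure D1:**
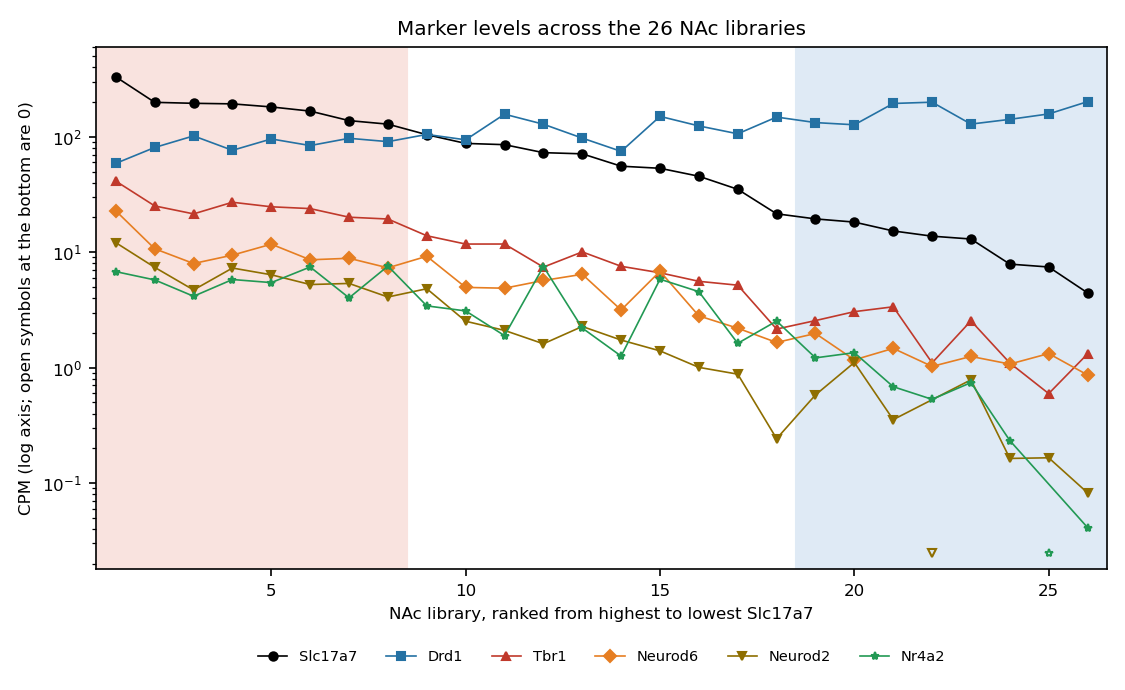
CPM on a log axis of Slc17a7, Drd1, Tbr1, Neurod6, Neurod2 and Nr4a2 in the 26 NAc libraries, ordered along the x axis from the highest to the lowest Slc17a7; the 8 high libraries are shaded red, the 8 low ones blue, and open symbols at the bottom are values of 0. Tbr1 descends with Slc17a7 along the whole ranking, from 41.3 CPM in the first library to at most 3.37 CPM in the low end, while Drd1 runs from 58.9 to 202 CPM.

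Among 13 measured genes of the pallial glutamatergic list, 9 rose, 1 fell and 3 were not called, with a median log2 fold change of 2.12 against -0.01 over all genes. Besides the genes above, Slc30a3, the transporter that loads zinc into glutamatergic vesicles, rose by 3.89 on the log2 scale (SE 0.31), from 0.0331 to 0.467 CPM in the low end to 2.77 to 7.79 CPM in the high end. Sv2b, a synaptic vesicle protein, rose least of the called members, by 0.50 (SE 0.12), and its ends overlapped, at 139 to 218 and 186 to 329 CPM. Arpp21 fell by 1.14, and because it is abundant the summed level of the list was lower in the high end, at 904 to 1112 CPM against 1051 to 1519 CPM. Arpp21 is a calcium- and cAMP-regulated phosphoprotein that is also abundant in striatal projection neurons. Of the 13, 7 lay wholly above the low end, beside 5.26% of all genes tested, and Arpp21 lay wholly below it, beside 3.61% of all genes.

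Layer genes moved unevenly. Of 11 measured upper-layer genes 5 rose, 1 fell and 5 were not called, with Plcxd2 (log2 fold change 1.37, SE 0.18) and Cux2 (1.01, SE 0.29), a transcription factor of layers 2 to 4, among those that rose. With the mt-rRNA covariate 1 upper-layer gene was called higher and 2 lower, and Cux2 then had a log2 fold change of 0.36 (adjusted p = 0.40). Of 13 deep-layer genes 5 rose, 3 fell and 5 were not called. Ccn2, a secreted matrix protein known from layer 6b, was highest among them (2.26, SE 0.35), with 4.39 to 12.7 CPM in the high end and 0.364 to 3.99 CPM in the low end. Fezf2, the transcription factor that specifies subcortically projecting layer 5 neurons, was not called, at 0.657 to 3.47 CPM in the high end and 0.509 to 1.5 CPM in the low end (log2 fold change 0.65, SE 0.33, adjusted p = 0.12). It was 19.8 CPM on average in the PFC, and was chosen after its values were seen.

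Of 7 measured claustrum and endopiriform genes, Nr4a2 (log2 fold change 3.22, SE 0.41), Ntng2 (2.88, SE 0.22) and Gng2 (1.37, SE 0.12) rose, and Synpr, Oprk1 and Gnb4 fell by 1.31, 0.81 and 0.42. All 6 separated the ends. Nr4a2 encodes the orphan nuclear receptor Nurr1 and Ntng2 the axon guidance ligand netrin-G2. Oprk1, the kappa opioid receptor, and Synpr, a vesicle protein, are also expressed in the striatum. The genes that rose were also present in the PFC, where Gng2, Ntng2 and Nr4a2 had medians of 53.8, 6.63 and 2.17 CPM. In the high end their medians were 23.4, 6.24 and 5.78 CPM. Which tissue the changes in this list came from was not tested. Nr4a2 had 4.02, 5.78 and 7.58 CPM as lowest, median and highest high value and 0, 0.607 and 1.35 CPM in the low end. Of 6 olfactory genes Calb2 (2.65, SE 0.24) and Cdhr1 (1.42, SE 0.35) rose and Reln fell by 1.31. All 4 measured septal and pallidal genes rose, 3 of them also with the mt-rRNA covariate, led by Dgkg (1.09, SE 0.13) and Zic1 (1.07, SE 0.13), and their summed level was 50.5 to 68.2 CPM against 21.0 to 31.1 CPM. This list was short, since 5 of its 9 genes, among them Lhx8 and Nkx2-1, were not in the table. The 4 measured genes are not specific to septum against cortex, as each had a higher median in the PFC than in the low end. Trpc4 and Zic2 had PFC medians of 6.71 and 4.34 CPM, above 5.47 and 2.25 CPM in the high end. Dgkg and Zic1 had 30.5 and 9.6 CPM in the PFC, below 31.6 and 16.4 CPM in the high end. Which tissue the rise of this list came from was not tested. Of 6 genes of thalamic and other Slc17a6 neurons only Slc17a6 itself, which encodes VGLUT2, rose (2.19, SE 0.50), and of 4 hippocampal genes only Fibcd1 (0.48, SE 0.14), which was no longer called with the mt-rRNA covariate (adjusted p = 0.15).

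Striatal genes fell as a group and by small steps. Of 19 genes shared by striatal projection neurons, 14 fell, none rose and 5 were not called, with a median log2 fold change of -0.44. Ano3, a member of the anoctamin family of membrane proteins, had 84.2, 120 and 149 CPM in the high end and 170, 241 and 312 CPM in the low end, and fell by 0.95 (SE 0.12). Their summed level was 2379 to 3508 CPM in the high end and 3294 to 4949 CPM in the low end, so the ends overlapped. With the mt-rRNA covariate all 19 were lower. Class genes did not fall together. Of 9 D1 genes Drd1 and Ebf1 (-1.17, SE 0.15) fell, while Tac1 and Pdyn, the substance P and dynorphin precursors of the same neurons, had log2 fold changes of -0.08 (SE 0.10) and 0.08 (SE 0.15) and were not called. Of 6 D2 genes Gpr6, Adora2a, Drd2 and Penk fell, by 0.39 to 0.88, and the kainate receptor subunit Grik3 rose by 1.06. In bulk tissue, fewer cells of a type and less RNA per cell cannot be told apart.

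Interneuron peptides rose although the general GABA genes were not called. Of 15 measured genes of GABA neurons and interneurons 10 rose and none fell, and 7 were called higher with the mt-rRNA covariate. Cck, a neuropeptide of cortical pyramidal cells and interneurons, lay between 30.2 and 65.6 CPM in the high end and between 4.57 and 7.76 CPM in the low end (log2 fold change 2.89, SE 0.16). Vip (2.71, SE 0.34) and Sst (2.03, SE 0.18) also separated the ends, and Pvalb and Npy both rose by 1.70. Gad1, Gad2 and Slc32a1, the GABA synthesis and vesicle loading genes that striatal projection neurons share with interneurons, had log2 fold changes of 0.21, 0.22 and 0.01 and were not called. Of 4 cholinergic genes none was called, with log2 fold changes from -0.16 to 0.51.

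Glial lists moved little. None of 10 oligodendrocyte genes was called, with log2 fold changes from -0.37 to 0.36, and none of 6 precursor genes, from 0.09 to 0.45. Of 9 astrocyte genes Aldh1l1 (0.36, SE 0.10) and Slc1a3 (0.34, SE 0.13) rose. Neither was called with the mt-rRNA covariate (adjusted p = 0.16 and 0.67). Of 8 microglial genes 3 fell, among them P2ry12 by 0.41 and Aif1 by 0.47, and Slco1a4 and Ly6c1 fell among 6 endothelial genes. With the covariate P2ry12 and Slco1a4 were the only members of these lists still called (adjusted p = 0.018 for both). Of 5 meningeal genes Myoc rose (2.62, SE 0.78) with overlapping ends, and Clic6, the only measured gene of the ependymal and choroid plexus list, fell by 0.46. Of 6 genes of immature neurons Dlx1 (0.98, SE 0.27) and Sox4 (0.64, SE 0.11) rose. Of 9 immediate early genes Fos (1.39, SE 0.30) and Fosl2 (0.46, SE 0.13) rose and Fosb fell by 0.56. Of 9 medial and ventral striatal genes, 4 rose, led by Calb2, with Tshz1 (0.83, SE 0.21) and Stard5 (0.78, SE 0.14), and Crym, a thyroid hormone binding protein, fell by 0.68. With the mt-rRNA covariate this list had 3 genes called higher and 4 lower, and without the 4 low libraries over 60% mt-rRNA 3 and 3.

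Receptors for glutamate moved both ways. Of 17 measured genes 6 rose and 5 fell, with a median of 0.00 on the log2 scale. Grm2, a presynaptic group II metabotropic receptor, rose most (2.59, SE 0.32), from 0.379 to 0.988 CPM in the low end to 2.09 to 9.77 CPM in the high end, and Grm8 rose by 1.15 (SE 0.22). Grm7 fell by 0.30 (SE 0.10), and its call was lost with the mt-rRNA covariate (adjusted p = 0.44). Of 9 genes of glutamate supply and clearance 4 rose, among them the glutamine transporters Slc38a2 (0.66, SE 0.11) and Slc38a1 (0.38, SE 0.09), and none fell. With the mt-rRNA covariate Cdhr1, Dlx1, Fosl2, Tshz1, Myoc and Slc38a1 were no longer called, with adjusted p from 0.058 to 0.17.

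**Figure D2:**
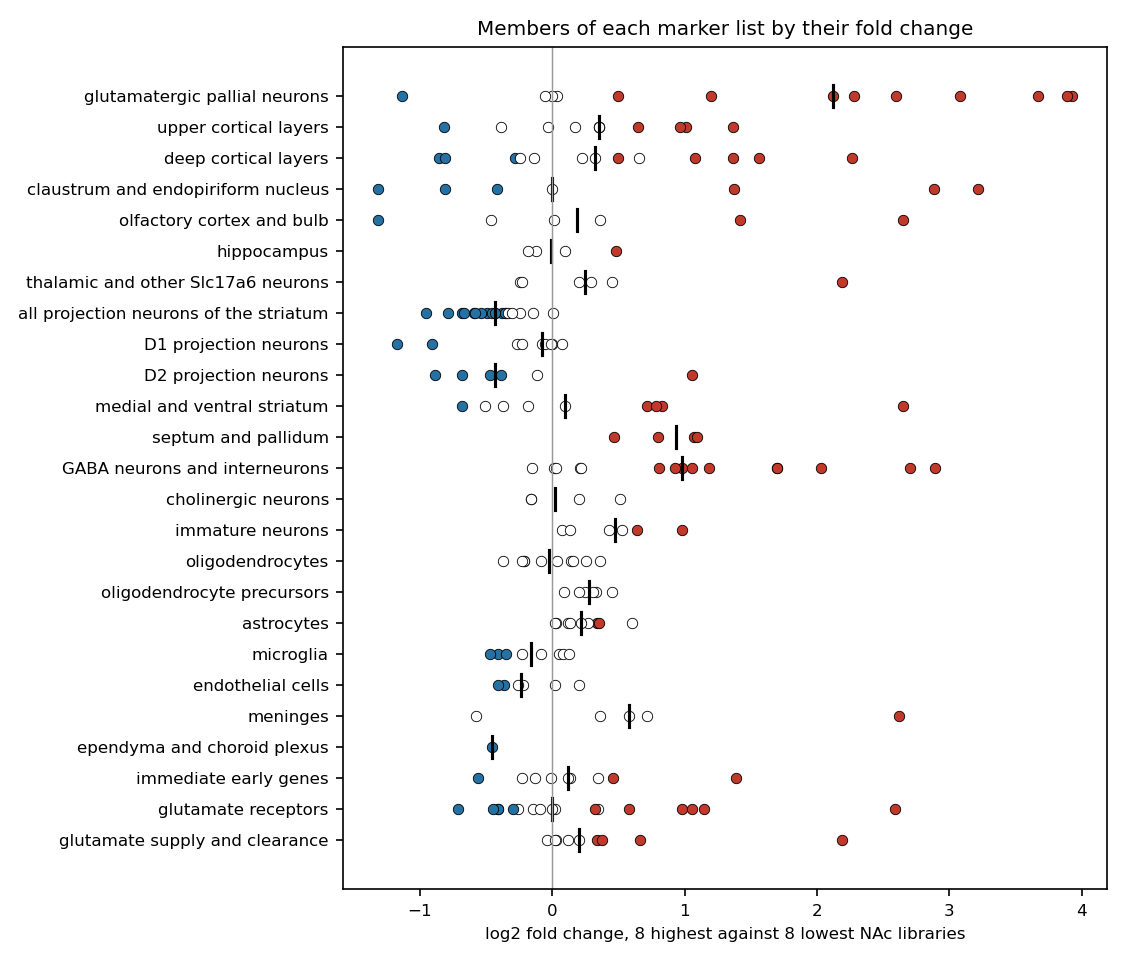
Log2 fold change between the 8 highest and 8 lowest NAc libraries (x axis) of every measured gene of each marker list (rows); red points were called higher, blue points lower, open points not called, and black bars are list medians. Pallial glutamatergic and interneuron genes extend to the right, up to 3.93, whereas the striatal list gathers left of 0 with a median of -0.44 and the claustral list has 3 members on either side.

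Each gene was then set beside its level in the PFC, which was scaled together with the NAc over 43 libraries, a step that raised NAc values by 1.12 to 3.50%. Slc17a7 averaged 609 CPM in the PFC, and its rise from the low to the high end covered 30.8% of the way from the low end to the PFC. The same share had a median of 41.8% over the 644 genes called higher with a PFC level at least 2 times that of the low end, with quartiles of 29.0 and 56.9%. Genes rich in the PFC that were not called higher were left out, so this median does not describe all PFC-rich genes. Computed in single high libraries, that median ran from 31.5 to 62.9%, highest in J1199. Neurod6 covered 15.0%, Grm2 13.4%, Vip 15.3%, Slc30a3 20.0% and Cck 20.3% of the way. Tbr1 and Neurod2 covered 42.4 and 45.1%, and Frzb, a secreted Wnt antagonist, 97.3%. Fezf2 covered 2.84%. Of the 644 genes, 32 covered over 100% of the way.

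To judge the direction without a shared library, the PFC was compared with the 10 middle NAc libraries. In that comparison 2568 genes (22.2%) were higher and 2739 (23.7%) lower in the PFC. Of the 1912 genes called higher in the high end, 1049 (54.9%) were higher in the PFC and 175 were lower. Of the 1832 called lower, 898 (49.0%) were lower in the PFC and 122 were higher. Cartpt, a peptide precursor of NAc neurons, was one of those against the trend. It rose by 1.43 (SE 0.22), from a highest low value of 21.2 CPM, which adjoined the lowest high value, to a highest value of 41.6 CPM, and averaged 1.0 CPM in the PFC (log2 fold change against the middle libraries -4.65, adjusted p = 2.7e-15).

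**Figure D3:**
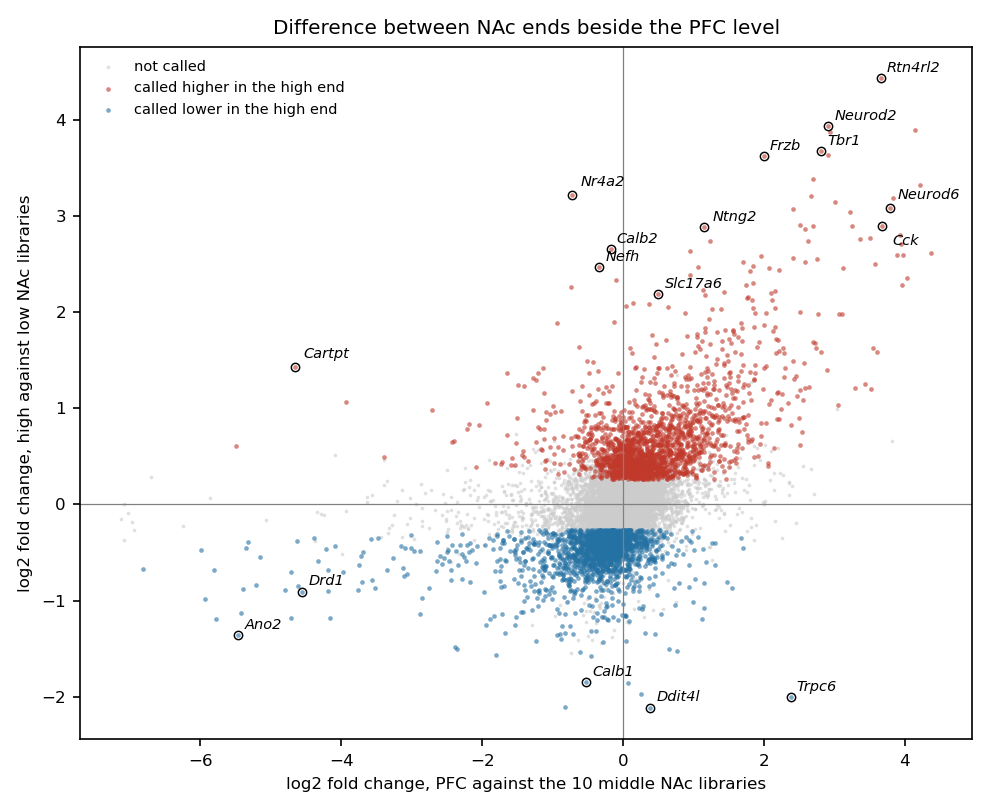
Each point is a gene, with its log2 fold change between PFC and the 10 middle NAc libraries on the x axis and between the high and low NAc ends on the y axis; red and blue points were called higher and lower in the high end. Rtn4rl2, Neurod2, Tbr1 and Neurod6 lie at the upper right, Drd1 and Ano2 at the lower left, and Nr4a2, Calb2, Nefh and Cartpt lie high without a higher PFC level.

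Among the 374 genes that rose, separated the ends, averaged at least 1 CPM and had a PFC level at least 2 times that of the low end, the largest steps were those of Rtn4rl2, Neurod2, Slc30a3, Gm11549, Tbr1, Prdm8, Frzb, Prss12, Adcyap1 and Nr4a2. Rtn4rl2, a receptor of the Nogo receptor family, had 1.15, 2.21 and 4.42 CPM in the high end and 0, 0.113 and 0.191 CPM in the low end (log2 fold change 4.43, SE 0.42, adjusted p = 2.7e-07), which is the largest fold of the group and rests on low counts. Adcyap1, the precursor of the neuropeptide PACAP, rose by 3.32 (SE 0.34) and averaged 24.6 CPM in the PFC. Gm11549, Prdm8, a transcriptional regulator, Frzb and Prss12, the protease neurotrypsin, rose by 3.38 to 3.88.

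With a PFC level under that of the high end, 156 genes that rose met the other conditions, and Nr4a2 was among both sets. The 374 genes hold 344 with a PFC level not under that of the high end, so the sets share members. In these genes the mean of the high end lay above those of both the low end and the PFC. The difference between the high end and the PFC was not tested. The 10 largest rises from the low end were those of Nr4a2, Ntng2, Calb2, Tuba8, Nefh, 6530402F18Rik, Adra2a, Ccn2, Slc17a6 and F730043M19Rik. Some of these were close to the PFC level. Ntng2 had a median of 6.24 CPM in the high end and 6.63 CPM in the PFC, and 6530402F18Rik of 5.47 and 5.13 CPM. Nr4a2 averaged 2.09 CPM in the PFC and the high end was 2.88 times that. Calb2, the calcium-binding protein calretinin, had 11.4, 14.5 and 30.5 CPM in the high end, 1.63, 2.38 and 5.06 CPM in the low end and 5.39 to 9.65 CPM in the PFC. The highest value was that of J1199, as it was for Tuba8 and Gm11549, and the next for Calb2 was 19.6 CPM. Nefh, the heavy neurofilament subunit, had 9.28, 18.7 and 28.8 CPM in the high end, 1.03, 3.33 and 6.92 CPM in the low end and 3.07 to 11.4 CPM in the PFC. The other neurofilament subunits, named after their values were seen, rose as well, Nefm by 2.06 (SE 0.24) and Nefl by 1.32 (SE 0.15). Slc17a6 had 5.0 to 10.3 CPM in the high end, 0.0662 to 4.68 CPM in the low end and 3.28 to 7.62 CPM in the PFC, and its ratio of high end to PFC was 1.36. Ntng2 and 6530402F18Rik overlap on the same strand of chromosome 2 (29194541 to 29253005 and 29245107 to 29253006), so their reads may be shared. Adra2a, the alpha-2A adrenergic receptor, rose by 2.33 (SE 0.25).

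The largest falls among 406 eligible genes were those of Ddit4l, Gm11855, Trpc6, Calb1, Fancb, Syt10, Dach1, Sgk3, Pou3f1 and Ano2. Calb1, the calcium-binding protein calbindin of the striatal matrix, had 43.3, 60.7 and 79.1 CPM in the high end and 183, 223 and 253 CPM in the low end. It fell by 1.84 (SE 0.12, adjusted p = 2.7e-09), the most firmly called of the 10, with no value in common. Ddit4l, an inhibitor of mTOR signalling, fell by 2.11 (SE 0.20) and Trpc6, a cation channel, by 2.0 (SE 0.20). Trpc6 averaged 101 CPM in the PFC, so the high end moved away from the PFC in this gene. Ano2, a calcium-activated chloride channel, fell by 1.35 (SE 0.11) and averaged 0.296 CPM in the PFC. Gm11855 is an annotated pseudogene, and its counts are uncertain for that reason.

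**Figure D4:**
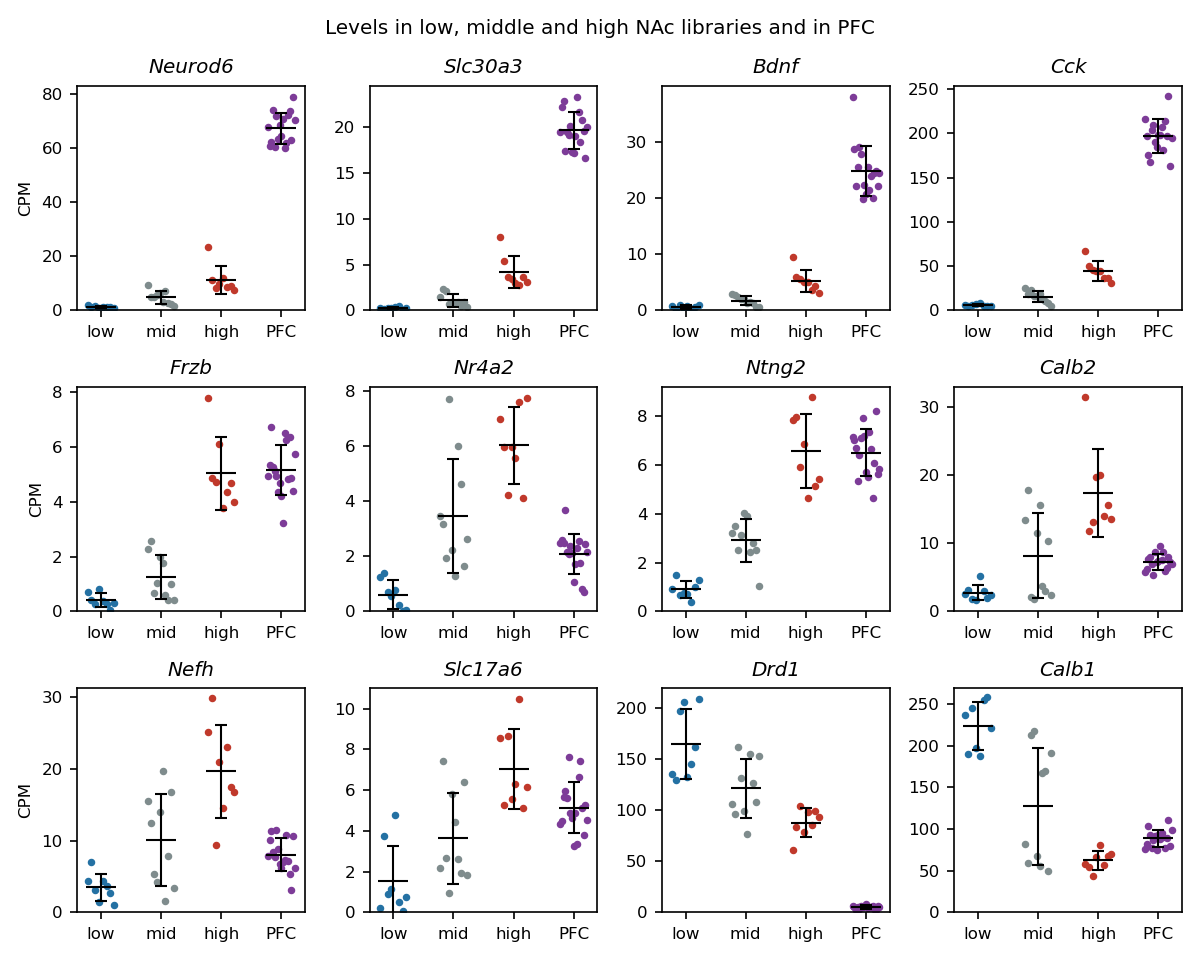
CPM of 12 genes, scaled over 43 libraries, in the 8 low, 10 middle and 8 high NAc libraries and the 17 PFC libraries; points are libraries, within each NAc group ordered from high to low Slc17a7, and bars are mean ± SD. Neurod6, Slc30a3, Bdnf and Cck are highest in the PFC, Nr4a2, Calb2 and Nefh in the high NAc end, Drd1 and Calb1 in the low end, and the middle libraries form an upper and a lower set in Calb1 and Calb2.

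Over all 26 libraries, 2308 genes (20.0%) rose and 2364 (20.4%) fell with log2 Slc17a7 in edgeR. These libraries include both ends, so the slopes are not a separate test of them. Per doubling of Slc17a7, Tbr1 rose by 0.94 on the log2 scale (SE 0.04), Neurod2 by 1.08 (SE 0.07), Neurod6 by 0.77 (SE 0.04) and Cck by 0.69 (SE 0.04), and Drd1 fell by 0.22 (SE 0.03). Tbr1 had Pearson's r = 0.97 and Spearman's rho = 0.98 with Slc17a7, and r = 0.98 without the 2 libraries farthest from the median, J965 and J1177. Drd1 had r = -0.81 and rho = -0.81, with r = -0.77 without those 2, and both genes reached the smallest p that 100000 permutations can give, 1e-05. For the 202 list genes, p was adjusted over the genes separately for r and for rho. Of these genes, 60 had a positive and 46 a negative r past an adjusted p of 0.05. All 106 kept their sign within both ranges of mouse numbers and without the 2 libraries. These are subsets of the same 26 libraries that picked the 106 genes, so the kept signs are not a separate test. The 5 largest positive r of all genes were those of Tbr1, Vxn, Cadps2, Nptx1 and Neurod6, from 0.96 to 0.97. The 5 most negative were those of Rab27b, Prkg1, Flrt3, Inpp5f and Ppp1r15b, from -0.88 to -0.87, which fell between the ends by 0.27 to 1.15 on the log2 scale.

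The 10 middle libraries took no part in the comparison of the ends and spanned 21.5 to 104 CPM of Slc17a7. Within them 6 genes rose with Slc17a7 and none fell (edgeR, adjusted p under 0.05, with 300 genes at an unadjusted p under 0.05). They were Tbr1 (slope 1.09 per doubling, SE 0.10, adjusted p = 0.0019), Cck (0.99, SE 0.11, adjusted p = 0.0040), Neurod2 (1.56, SE 0.18, adjusted p = 0.0057), Bdnf (1.19, SE 0.15, adjusted p = 0.0078), Vxn (0.77, SE 0.10, adjusted p = 0.0081) and Prss23 (0.73, SE 0.11, adjusted p = 0.033). Bdnf is the neurotrophin that cortical neurons supply to the striatum, Vxn encodes a neuronal differentiation factor, and Prss23 is a serine protease. With the mt-rRNA covariate 6 genes were called as well. The slope was positive for 1611 of the 1912 genes called higher in the ends (84.3%), beside 51.9% of all genes, and negative for 1359 of the 1832 called lower (74.2%).

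Several genes that separated the ends had no detectable slope on Slc17a7 between them. Only 6 genes were called in these 10 libraries, so a missing call does not show that a gene did not follow Slc17a7. In the middle libraries Nr4a2 had a slope of 0.23 (SE 0.37), Nefh of 0.35 (SE 0.47), Calb2 of 0.70 (adjusted p = 1.0), Ccn2 of -0.01, Slc17a6 of 0.17, Drd1 of -0.12 and Calb1 of -0.17, none of them called. Calb1 instead took 2 levels there, with 5 libraries between 49.0 and 81.3 CPM, near the values of the high end, and 5 between 163 and 213 CPM, near those of the low end. Slc17a7 overlapped between these sets, at 35.1 to 104 and 21.5 to 85.5 CPM, as did Tbr1, Neurod2 and Cck. Calb2 lay between 10.1 and 17.5 CPM in the 5 libraries low in Calb1 and between 1.76 and 3.69 CPM in the other 5. Zic1, a transcription factor of the septum and ventral forebrain, followed it with 13.2 to 22.8 against 5.84 to 8.29 CPM, and Nefh with 12.2 to 19.2 against 1.55 to 7.66 CPM. Drd1 lay at 74.8 to 106 CPM beside low Calb1 and at 124 to 157 CPM beside high Calb1. Ccn2 went against its direction in the ends, with 3.96 to 6.56 CPM beside low Calb1 and 7.58 to 13.9 CPM beside high Calb1. The sets were defined from Calb1 itself and were not tested. Only a small choice of named genes was set against this split. The share of all genes that separate these sets is not given, so these genes cannot be said to stand out. Both contained libraries of both ranges of mouse numbers, and their mt-rRNA shares overlapped, at 40.4 to 54.8% and 45.7 to 59.9%.

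The other punches of the same mice were examined for a trace of the NAc ranking. For this, the PFC level of Slc17a7 was scaled over the 17 PFC libraries alone, unlike the PFC mean given above. It was 624 ± 10.2 CPM (SD, n = 3) in mice of the high end and 633 ± 19.2 CPM (SD, n = 8) in mice of the low end. The difference was not detectable (two-sided exact permutation test over 165 splits, p = 0.455). Across the PFC of 17 mice 359 genes rose and 583 fell with the NAc level of Slc17a7. In that edgeR fit 3458 of 11561 genes had an unadjusted p under 0.05. With the range of mouse numbers as a covariate edgeR called 0 genes, yet 2558 of 11565 had an unadjusted p under 0.05. The missing calls therefore do not show that the relation was absent. In the SCN of 19 mice edgeR called 0 genes, with 671 of 12047 at an unadjusted p under 0.05. In the NAc itself no gene was called for a slope that differed between the ranges (edgeR interaction, 415 of 11568 genes at an unadjusted p under 0.05). This does not show that the slopes were alike.

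The sequence upstream of the start sites was searched for an E-box of the form CAGATG, on either strand (CATCTG), because Neurod2 and Neurod6 are factors that bind such motifs. RefSeq gave 250 bases before its own start of the gene for 8759 of 11569 genes of the table. For Tbr1, Ntng2, Neurod2, Drd1 and 6530402F18Rik that start lies inside the GENCODE span given above. The motif was present in 9.65% of the upstream sequences of genes called higher, 9.26% of those called lower, 9.10% of all in the table and 14.5% of all 27025 in RefSeq, so genes called higher carried it about as often as others. The upstream sequences of 2 genes that rose, on GRCm38.p6 and written 5′ to 3′ on the strand of the gene, show a copy in capitals.
Neurod2, chr11:98329646-98329895, minus strand: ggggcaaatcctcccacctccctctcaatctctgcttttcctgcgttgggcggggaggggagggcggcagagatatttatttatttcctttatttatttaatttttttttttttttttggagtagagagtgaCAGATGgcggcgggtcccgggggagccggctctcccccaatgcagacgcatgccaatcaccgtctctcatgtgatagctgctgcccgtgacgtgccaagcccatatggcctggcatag
Ntng2, chr2:29248100-29248349, minus strand: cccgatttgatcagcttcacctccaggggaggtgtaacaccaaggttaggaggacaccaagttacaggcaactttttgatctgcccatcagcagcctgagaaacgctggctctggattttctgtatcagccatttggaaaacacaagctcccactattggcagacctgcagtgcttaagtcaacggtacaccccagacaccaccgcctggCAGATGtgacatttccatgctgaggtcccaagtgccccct
Tbr1, Neurod6, Nr4a2 and Drd1 had no copy in the same window. Flrt3, which fell, had 1 copy.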

How the data were processed

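The authors extracted total RNA from punches of single mice, prepared libraries from 10 ng with a SmartSeq HT kit, aligned paired reads to GRCm38 with HISAT2 and counted them per gene with HTSeq. The deposited values are raw counts per gene, one table for NAc and PFC (11569 rows) and one for the SCN (12047 rows); FastQC 0.11.7 is named in the submitters' processing notes. The strand setting is not given in the sources used here. Positions came from GENCODE M21, found for 11545 and 12020 rows.

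The 26 NAc libraries were scaled by TMM, ranked by Slc17a7 and tested with edgeR 4.0.16 (R 4.3.3; filterByExpr, glmQLFTest), 8 against 8, and with log2 Slc17a7 as a slope. Slc17a7 was left out, leaving 11568 genes. Levels for correlations were log2 CPM with a prior count of 2. Labels give region and mouse only, so the ends are groups defined from the data, and their libraries come from different mice. PFC libraries were compared with the 8 low and the 10 middle NAc libraries. In simulated counts of 11569 genes for the comparison of the ends, 200 of 200 genes changed 2-fold were recovered and 8 others were called. Every simulated gene had the same fixed, replicate-like spread, and the changed genes were not drawn from the lowest levels. These counts check the code and do not give the recovery or the false calls in the real ends. Libraries held 28879724 to 60009482 counts; shares and levels carry counting error besides the spread between mice. Correlations and permutation tests used Python 3.11.15, scipy 1.17.1, numpy 2.4.6 and pandas 2.3.3.

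The libraries, the gene lists and the rules were chosen with earlier results of these data known. Named genes were the list genes (up to 3 called members with the largest fold and the called member with the smallest), the 10 largest rises with a PFC level at least 2 times the low end, the 10 largest with a PFC level under the high end, the 10 largest falls and the 5 largest r in each direction. Fezf2, Tac1, Pdyn, Slc32a1, Cartpt, Nefm, Nefl, Bdnf, Prss23 and list genes outside that rule were named after their values were seen. Alternatives were DESeq2 1.42.0, other scalings, filters and numbers of libraries, each range of mouse numbers and single libraries left out. The mt-rRNA covariate, leaving out 4 low libraries with over 60% mt-rRNA and the middle libraries set against the PFC were chosen after seeing the data. CRD and sex were not analysed here. Some list genes are counted in their lists and not reported by name here.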

Additional observations from a re-analysis of the deposited data

Results flagged for a closer look

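Values far from the other 7 of their end were found 9 times in 80 groups, 2 ends for each of 40 genes, by a gap test that chance meets in about 5% of groups. Slc17a7 ranked the libraries and most of these genes were chosen for following it, so that rate is no measure for these values, which are given as a description. The library of J1199 held 7 of them, all at the top of the high end, with 330.5 CPM of Slc17a7, 41.3 CPM of Tbr1, 22.8 CPM of Neurod6, 12.1 CPM of Neurod2, 30.5 CPM of Calb2, 6.87 CPM of Gm11549 and 6.30 CPM of Tuba8. The next highest libraries had 199 CPM of Slc17a7, 27.1 CPM of Tbr1, 11.7 CPM of Neurod6 and 19.6 CPM of Calb2. Without J1199 the comparison of the ends gave 1698 higher and 1582 lower genes. In the low end, J1014 stood above the others with 5.06 CPM of Calb2, where the next had 3.02 CPM, and J965 with 49.3 CPM of Ppp1r15b, where the next had 45.0 CPM.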

How the results depend on the processing

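The ends gave 1912 higher and 1832 lower genes. Leaving out 1 library at a time gave 1676 to 2078 higher and 1573 to 2024 lower. DESeq2 (2028 and 1982), its size factors, TMM over 43 libraries, 6 or 10 libraries an end, no or a stricter filter, the range as a covariate and removal of mitochondrial and ribosomal RNA genes stayed within 1.5 times. The counts were 736 and 531 in the lower range alone and 759 and 495 in the upper, with fewer libraries, 1101 and 1041 with the mt-rRNA covariate, and 1248 and 1038 without the 4 low libraries over 60% mt-rRNA; the cause of the latter was not tested. Slopes over 26 libraries gave 1117 higher and 956 lower with that covariate. The PFC counts of 359 and 583 by NAc Slc17a7 became 0 and 0 with the range as a covariate. In that edgeR fit 2558 of 11565 genes still had an unadjusted p under 0.05. Both ends come from different mice, so no pairing applies to them; the PFC against the low end in the same 8 mice gave 3047 higher and 3158 lower genes with a replicate block and 3082 and 3374 without.

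Of 100 named genes, 96 were called and none of these changed direction under any alternative. Without some single library 7 lost their call, namely Ppp1r15b, Tle4, Rgs9, Penk, Zic2, Slc1a3 and Grm7. Other settings weakened more of the 100 without changing their direction. These were 28 in the lower range alone, 24 in the upper, 20 with the mt-rRNA covariate and 14 without the 4 low libraries over 60% mt-rRNA. Genes that were not called changed sign. Fezf2 reached -0.0035 with the mt-rRNA covariate. Tac1 reached 0.071 with it, 0.011 without the 4 low libraries and 0.0078 in the lower range. Pdyn reached -0.18, -0.15 and, in the upper range, -0.28. Slc32a1 reached -0.18 and -0.10 under the same 2 settings, -0.084 in the upper range, -0.0092 with the range as a covariate and -0.0030 with 6 libraries an end. Depth was 108 to 1072 reads of Slc17a7 per low library, and folds of genes at 0 in a low library, such as Rtn4rl2, depend on the prior count.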

Other observations

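The 2 mice highest in NAc Slc17a7, J1199 and J1140, were also the highest of 19 SCN libraries in Ppp1r1b, which encodes the striatal phosphoprotein DARPP-32, with 123 and 64.4 CPM of total counts where the next library had 10.5 CPM, and in Drd1, with 43.7 and 27.2 CPM where the next had 17.6 CPM. The other high-end mice with an SCN library did not share this. In Ppp1r1b, J1158 had 6.68 CPM and ranked 9, while J1178, J1013, J1160 and J1020 had 2.82 to 4.34 CPM and ranked 14 to 17. In Drd1 these mice had 5.33 to 16.6 CPM. A relation to NAc Slc17a7 was not tested for these values. The SCN table is separate and was scaled on its own. Among genes that separated the ends and averaged at least 1 CPM, the median middle-library slope per doubling of Slc17a7 was 0.25 for the 344 with a PFC level at least 2 times the low end and not under the high end, and 0.14 for the 156 with a PFC level under the high end, beside 0.00 over all genes; the difference between these sets was not tested.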
